A study of Mus musculus with 4 samples.

Results

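Genes of apoptosis, necroptosis, pyroptosis and the p53 pathway were examined in RNA sequencing of sorted mouse hair follicle stem cells. The members were 38 genes, listed by symbol for their known roles (with earlier results of these data known), of 24084 gene rows in the deposited table. All 38 had a row, and 37 passed the filter on low counts. The exception was Bik, a pro-death BH3-only gene, with 0 counts in WT A and 2 counts in each of the other libraries. Both groups were C57BL/6 mice aged 7 to 10 weeks that received diphtheria toxin at 15 ng/g intraperitoneally, and their follicle stem cells were sorted from skin epidermis 4 days after the back was depilated. The WT group (libraries A and C) kept its regulatory T cells. In the Foxp3-DTR group (libraries C and D) the toxin receptor is made in Foxp3-expressing cells, so the toxin depletes regulatory T cells. No group without toxin was analysed here, so any effect of the toxin that both groups share cannot be seen.

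Cells die by several regulated routes. In the mitochondrial route of apoptosis, BH3-only proteins sense damage and free Bax and Bak1 to open the outer mitochondrial membrane, which survival proteins such as Bcl2 and Mcl1 prevent. Released cytochrome c then assembles Apaf1 and Casp9 into the apoptosome, and caspases cut the cell's proteins. Death receptors such as the TNF receptor act through Fadd, Ripk1 and Casp8, and where Casp8 is held back, Ripk3 and Mlkl can rupture the membrane instead (necroptosis). In pyroptosis the inflammatory caspases Casp1 and Casp4 cut Gsdmd, which then forms pores. The transcription factor p53 (Trp53), held down by Mdm2 and Mdm4, raises both arrest and death genes after DNA damage. Its relative p63 (Trp63) is a lineage factor of stratified epithelium. In the follicle, apoptosis is best known from the regression phase of the hair cycle, whereas the cells here came from follicles entering growth.

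Gene counts per library ranged from 13911765 to 15923154. The 10 follicle stem cell markers checked, among them Krt15, Cd34 and Lhx2, were detected in all libraries. They summed to between 27340 and 34000 CPM, the count scaled to library size (here by TMM). Most of this sum came from Krt5, Krt14 and Krt15, at 15425, 4079 and 9884 CPM in WT A, so it says little of the other markers. The groups differed in sex: 4 Y-linked genes summed to 0 CPM in both WT libraries, and to 319 and 260 CPM in Foxp3-DTR C and D. The titles also carry DEP2 in both WT and DEP3 in both Foxp3-DTR libraries. Neither the sex of the mice nor the meaning of this code can be separated from genotype, and their part in any difference below cannot be told apart from it. Suprabasal keratinocyte markers (7 of 8 listed had a row) did not follow the groups: they summed to 8274 CPM in WT A and 7033 CPM in Foxp3-DTR D, against 988 CPM in WT C and 1205 CPM in Foxp3-DTR C.

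Most arms of the death machinery were present in these cells, but at very unequal levels. Levels of different genes were compared only per exon length, as TPM, in which counts are divided by exon length and then scaled to a common library total. Trp63 stood highest, at 873 ± 139 TPM in WT and 546 ± 11.7 TPM in Foxp3-DTR (SD, n = 2 libraries a group, as for all means below). Next came Phlda3, a p53 target that restrains Akt, at 440 ± 7.58 and 611 ± 5.93 TPM, and the short-lived survival protein gene Mcl1, at 331 ± 90.8 and 437 ± 2.46 TPM. These 3 genes were above the 97th percentile of tested genes. A second tier held p53 itself (150 ± 22.4 TPM), its target Ccng1 (143 ± 25.7 TPM), the pore former Bax (118 ± 21.7 TPM) and the stress protein gene Trp53inp1 (110 ± 78.8 TPM). The spreads of these 4 overlap.

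**Figure D1:**
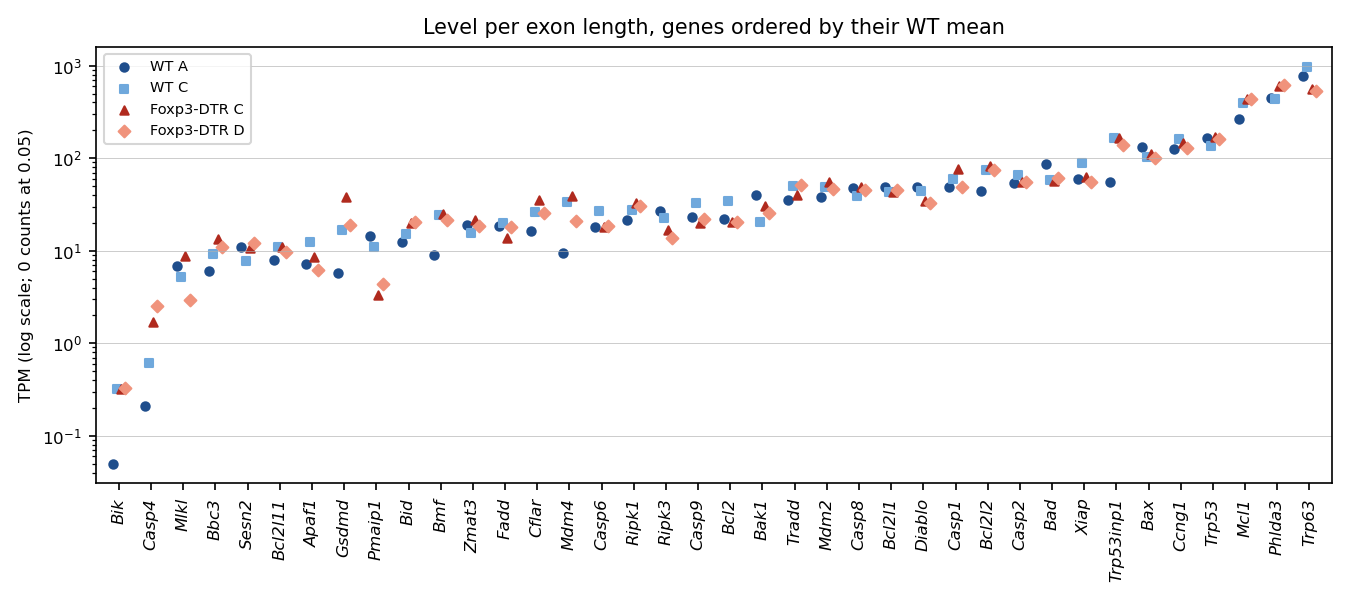
Level of each of the 38 genes per exon length (TPM, log axis), 1 point per library, genes ordered from left to right by their WT mean. Trp63, Phlda3 and Mcl1 stand at the right end, and Bik and Casp4 at the left, below 3 TPM in all libraries.

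Among the survival proteins Mcl1 stood well above the others by TPM: in WT, Bcl2l2 reached 59.4 ± 20.9 TPM, Bcl2l1 (Bcl-xL) 45.9 ± 3.65 TPM and Bcl2 28.1 ± 8.66 TPM. Of the pore formers, Bax exceeded Bak1 (118 ± 21.7 against 29.9 ± 13.6 TPM in WT, 105 ± 8.05 against 28.0 ± 3.36 TPM in Foxp3-DTR). Among BH3-only genes Bik was near 0, and the others ranged in WT from 7.68 ± 2.23 TPM for Bbc3 (Puma) to 72.1 ± 18.9 TPM for Bad. Bad stood above Bak1 in both groups. The WT spreads of Bad and Bcl2l2 overlap, and in Foxp3-DTR Bad was the lower, at 58.5 ± 3.27 against 78.3 ± 5.64 TPM. The initiator caspases Casp2 and Casp8 stood at 59.6 ± 7.85 and 43.8 ± 6.14 TPM in WT, and Casp9 at 27.6 ± 6.71 TPM with Apaf1 at 9.79 ± 3.56 TPM. The inflammatory caspase Casp1 was at 53.9 ± 7.84 TPM, whereas Casp4, which senses cytosolic endotoxin and lies next to it on the chromosome, was at 0.410 ± 0.284 TPM. The necroptosis executioner Mlkl stood at 6.01 ± 1.22 TPM and Gsdmd at 11.2 ± 7.83 TPM.

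The comparison of Foxp3-DTR with WT asks whether this machinery differs in stem cells when regulatory T cells are missing. No member passed in edgeR, and Trp63 alone passed in DESeq2. In edgeR's quasi-likelihood test 0 of 37 members passed an adjusted p of 0.05 over the 12920 genes tested, where 1.25% of all genes passed (0.82% higher and 0.426% lower). At an unadjusted p under 0.05 there were 5 of 37 members, 3 higher (Casp4, Gsdmd, Phlda3) and 2 lower (Pmaip1, Trp63). This was 13.5% of members beside 14.6% of all genes (6.76% higher and 7.89% lower). Casp4 passed the filter on low counts only through the Foxp3-DTR libraries, so its place among these 5 is no support, and its p was above 0.05 without the filter and by limma-voom. With limma-voom 0 of 37 passed (0.72% of all genes, and 4 members at an unadjusted p under 0.05), and with DESeq2 1 of 37, Trp63 (7.4% of all genes). The member with the smallest p, Pmaip1, ranked 976 among the tested genes.

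Counted by library, the 2 groups did not overlap for 17 of 37 members (45.9%), beside 45.7% of all tested genes, so this share was near the background. Of these, 11 had both Foxp3-DTR libraries above both WT libraries (22% of all genes) and 6 had both below (23.7%). The median log2 fold change of the members was 0.16, against -0.01 over all genes, with 21 of 37 positive (56.8%, against 48.6%). Casp4, which passed the filter only through Foxp3-DTR, is among the 11 and among the 21, so its place there is no support. The median absolute log2 change was 0.335 against 0.285. A pointwise 95% interval within a 2-fold change in both directions was reached by 21 of 37 members (56.8%, against 50.6% of all genes). For the other 16 members the data do not limit the change to less than 2-fold. On simulated data for this comparison (12920 genes, changed genes above an average log2 CPM of 2), the test recovered 22% of 2-fold and 80% of 4-fold changes. It also made 13 false calls among the genes left unchanged. In sorted bulk cells, fewer cells with a transcript and less of it per cell cannot be told apart.

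**Figure D2:**
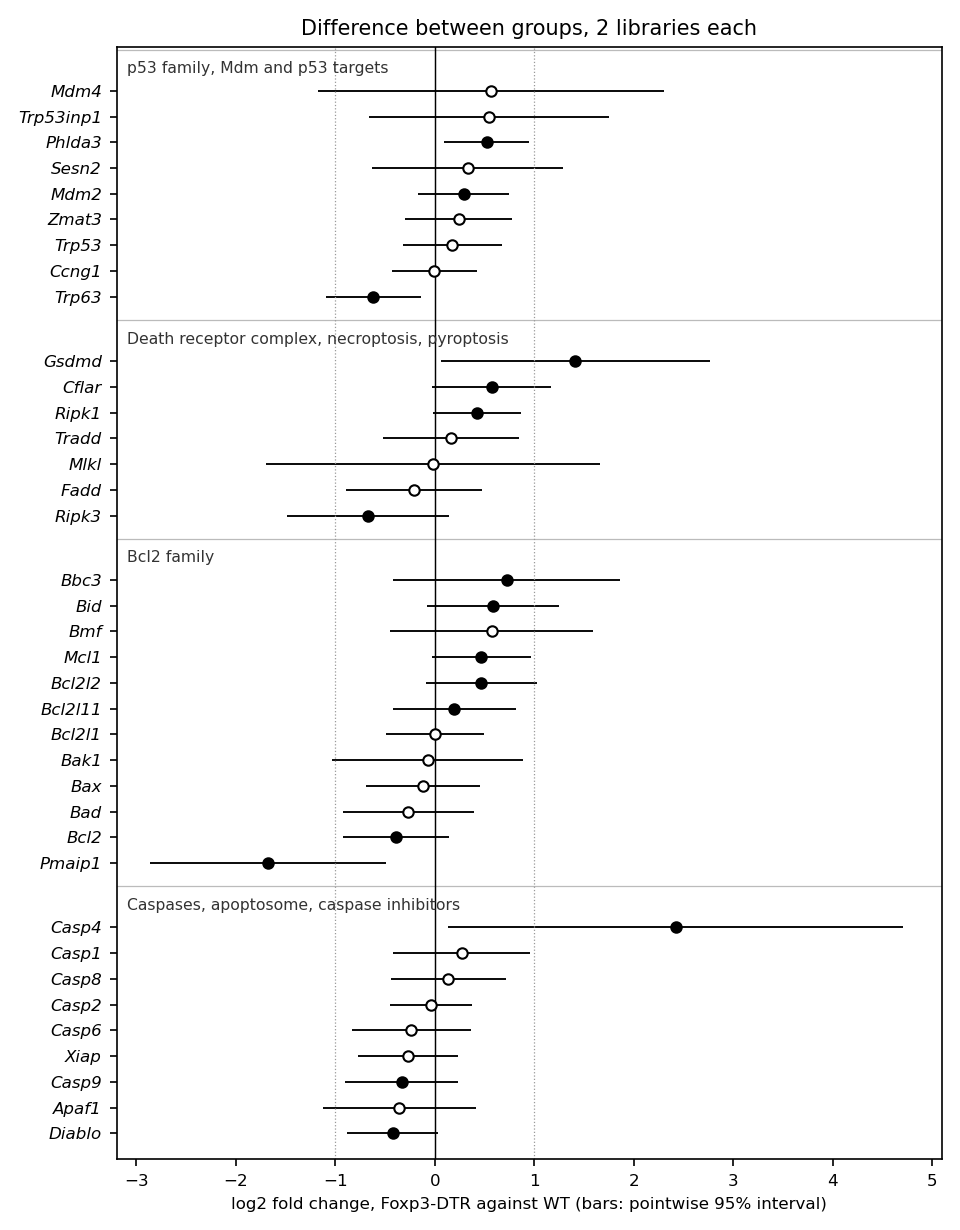
Log2 fold change of Foxp3-DTR against WT for the 37 tested genes, by role, with pointwise 95% intervals from edgeR's fit. Filled points mark the 17 genes whose groups did not overlap, and dotted lines mark 2-fold. Casp4 and Gsdmd lie farthest to the right and Pmaip1 farthest to the left.

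The caspases and their regulators did not shift together: 3 of 9 had positive and 6 negative fold changes, with a median of -0.235 and 0 calls in edgeR's test. Among the 3 positive was Casp4, which passed the filter only through Foxp3-DTR. Casp4 had 3, 9, 25 and 36 counts in WT A, WT C, Foxp3-DTR C and Foxp3-DTR D, which is 0.211, 0.554, 1.66 and 2.55 CPM. Both Foxp3-DTR libraries lay above both WT libraries, on few reads. The log2 fold change was 2.42 ± 0.95 (SE), with an interval from 0.14 to 4.71 and an edgeR adjusted p of 0.309. Its neighbour Casp1 (mm10 chromosome 9, 5298517 to 5307265, with Casp4 at 5308828 to 5336783) stood at 19.6 and 21.7 CPM in WT and at 29.8 and 19.98 CPM in Foxp3-DTR, so the groups overlapped. The 11 myeloid and Langerhans cell markers, a cell type that also makes inflammatory caspases, summed to 26.8 and 3.57 CPM in WT and 25.1 and 10.2 CPM in Foxp3-DTR. Cd74 alone stood at 17.8 and 1.05 CPM in WT and at 21.8 and 3.83 CPM in Foxp3-DTR. It made up most of the sum in WT A and in Foxp3-DTR C, so these sums say little of the other markers. None of the 11 markers was at 0 counts in all libraries, and single markers went in both directions. In the order used for Casp4, Ptprc (CD45) had 24, 5, 2 and 0 counts and Fcer1g 17, 13, 1 and 0. Cd68 had 17, 17, 29 and 51 counts and S100a9 0, 0, 3 and 36, both highest in Foxp3-DTR D, as Casp4 was. The part of these markers in the Casp4 level was not tested.

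Casp9 and Diablo were lower by library in Foxp3-DTR, and Apaf1 overlapped between groups, at 17.8 and 27.1 CPM in WT against 20.03 and 15.1 CPM. Casp9 stood at 32.3 and 41.1 CPM in WT and 27.3 and 31.0 CPM in Foxp3-DTR, with both Foxp3-DTR libraries below. Its log2 fold change was -0.33 ± 0.24 (edgeR adjusted p = 0.614). Diablo, the mitochondrial protein that relieves caspases from their inhibitors, stood at 80.9 and 66.6 CPM in WT and at 54.8 and 55.1 CPM in Foxp3-DTR. Its groups did not overlap either, at -0.42 ± 0.19 with an edgeR adjusted p of 0.388. Diablo shares 19.3% of its exon length with a gene on the same strand and 23.5% with genes on the opposite strand, so its counts are uncertain. Xiap, the caspase inhibitor that Diablo binds, stood at 152 and 206 CPM in WT and at 153 and 143 CPM in Foxp3-DTR, and these overlap. Xiap is X-linked, and Xist stood at 861 and 2482 CPM in the WT libraries and at 1.86 and 0 CPM in Foxp3-DTR. The part of sex in the Xiap level was not tested. The remaining caspases overlapped between groups: Casp2, at 102 to 112 CPM over the 4 libraries, had the narrowest interval of the list, from -0.45 to 0.37 around a log2 fold change of -0.04.

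**Figure D3:**
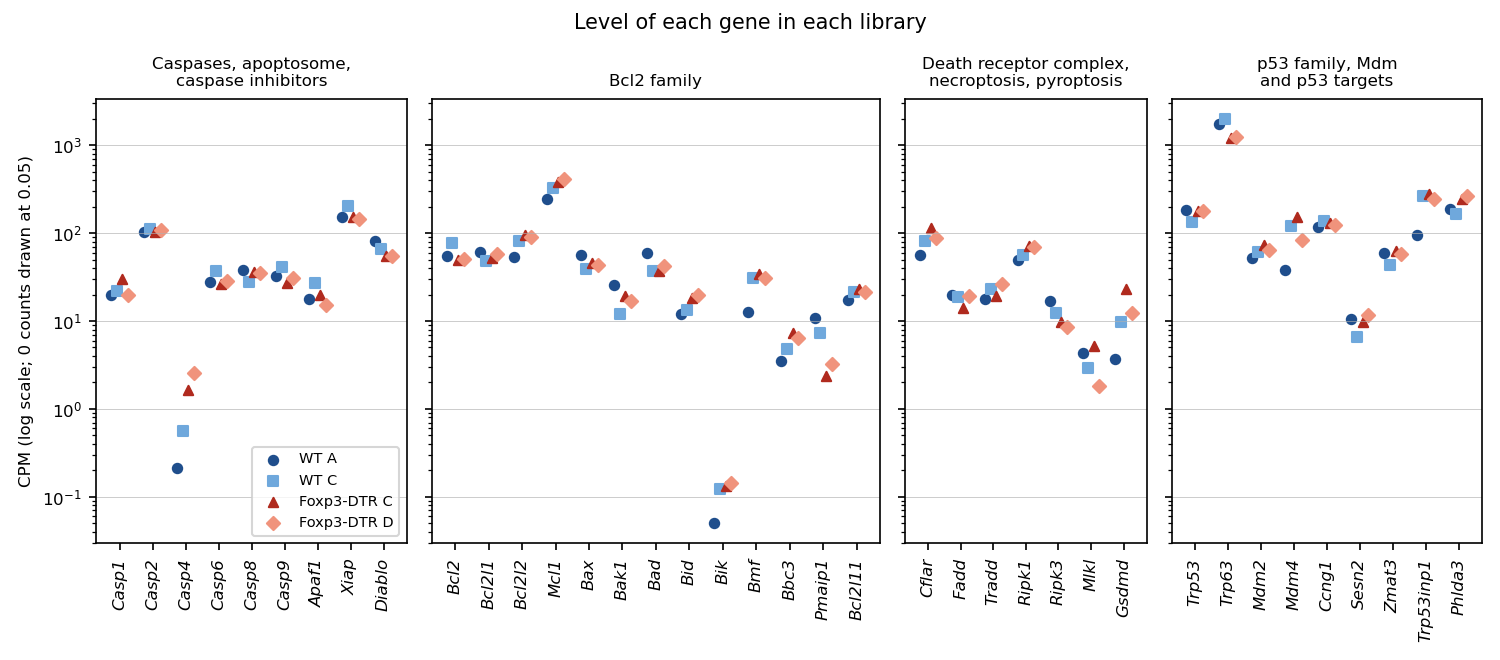
CPM of each of the 38 genes in each of the 4 libraries, on a log axis shared by the panels, with genes grouped by role. Pmaip1 and Trp63 show both Foxp3-DTR libraries below both WT libraries, Casp4 and Phlda3 both above, while Mdm4, Bmf and Trp53inp1 show 1 low library, WT A.

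Within the Bcl2 family 7 of 12 tested genes had positive and 5 negative fold changes, with a median of 0.10 and 0 calls in edgeR's test. The survival genes Mcl1 and Bcl2l2 were higher in both Foxp3-DTR libraries, and Bcl2 was lower. Mcl1 (chromosome 3, 95658788 to 95663176) stood at 247 and 329 CPM in WT and at 388 and 410 CPM in Foxp3-DTR. The log2 fold change was 0.47 ± 0.21, with an interval from -0.03 to 0.97 (edgeR adjusted p = 0.380). Bcl2l2 stood at 54.1 and 80.8 CPM in WT and 95.6 and 90.7 CPM in Foxp3-DTR (edgeR adjusted p = 0.445), and shares 13.3% of its exon length with a same-strand read-through gene. Bcl2 stood at 54.7 and 76.6 CPM in WT and at 49.3 and 50.8 CPM in Foxp3-DTR (log2 fold change -0.39 ± 0.22, edgeR adjusted p = 0.512). For each of these 3 genes the spread in WT was wide against the difference. Bcl2l1 was level, at 60.3 and 48.5 CPM against 51.7 and 57.3 CPM, with an interval from -0.49 to 0.49.

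The pore formers overlapped between groups. Bax stood at 57.0 and 39.4 CPM in WT and at 45.6 and 43.0 CPM in Foxp3-DTR, so both Foxp3-DTR libraries fell inside the WT range. Bak1 did the same, at 25.8 and 11.9 CPM against 19.03 and 16.9 CPM. Their intervals ran from -0.69 to 0.45 and from -1.03 to 0.89. For Bak1, 25.5% of the exon length overlaps Ggnbp1 on the opposite strand.

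BH3-only genes, the sensors of the family, went in both directions. Pmaip1 (Noxa), which neutralizes Mcl1, stood at 10.8 and 7.32 CPM in WT and at 2.39 and 3.26 CPM in Foxp3-DTR. Both Foxp3-DTR libraries were below both WT libraries, on 153, 119, 36 and 46 counts. Its log2 fold change of -1.68 ± 0.50, with an interval from -2.86 to -0.49, did not pass (edgeR adjusted p = 0.1703). Pmaip1 and Mcl1, the inhibitor and its target, differed in opposite directions by library, though neither passed. Other BH3-only genes did not follow Pmaip1: Bid, Bbc3 and Bcl2l11 had both Foxp3-DTR libraries above WT, as Mcl1 had. Bid, which links death receptors to mitochondria, stood at 12.1 and 13.2 CPM in WT and 18.2 and 19.8 CPM in Foxp3-DTR (0.58 ± 0.28, edgeR adjusted p = 0.413), and 17.7% of its exon length overlaps Bcl2l13 on the opposite strand. Bbc3, a direct p53 target, stood at 3.52 and 4.80 CPM against 7.36 and 6.38 CPM (0.72 ± 0.48, edgeR adjusted p = 0.581). The groups did not overlap for Bcl2l11 (Bim) either, though by a narrow margin, at 17.4 and 21.2 CPM against 22.9 and 21.3 CPM. Bad and Bmf overlapped.

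The death receptor complex and the necroptosis and pyroptosis genes held 4 positive and 3 negative fold changes, with 0 calls in edgeR's test. Cflar, Ripk1 and Gsdmd were higher by library in Foxp3-DTR and Ripk3 was lower. Cflar (c-FLIP), the catalytically dead relative of Casp8 that blocks it, stood at 55.8 and 81.2 CPM in WT and at 116 and 87.9 CPM in Foxp3-DTR. Ripk1, the kinase and scaffold under the TNF receptor, stood at 48.9 and 56.0 CPM against 71.4 and 69.2 CPM. Neither gene's groups overlapped: the log2 fold changes were 0.57 ± 0.25 and 0.42 ± 0.18, with edgeR adjusted p of 0.368 and 0.370. Ripk3, which phosphorylates Mlkl, stood at 16.8 and 12.5 CPM in WT and 9.88 and 8.50 CPM in Foxp3-DTR (-0.67 ± 0.34, edgeR adjusted p = 0.447). Mlkl was the most variable within Foxp3-DTR, at 5.24 and 1.84 CPM, on either side of the WT values of 4.29 and 2.89 CPM. Fadd and Tradd overlapped between groups.

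Gsdmd (chromosome 15, 75862327 to 75867408), the pore former of pyroptosis, stood at 3.66 and 9.72 CPM in WT and at 23.3 and 12.4 CPM in Foxp3-DTR. Both Foxp3-DTR libraries were higher, but the libraries of each group differed by 2.65 times in WT and 1.88 times in Foxp3-DTR. The log2 fold change was 1.41 ± 0.56, with an interval from 0.06 to 2.77 (edgeR adjusted p = 0.317).

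In the p53 family the largest difference in level was in Trp63 and not in Trp53. Trp63 (chromosome 16, 25683763 to 25892102) stood at 1764 and 1989 CPM in WT and at 1211 and 1234 CPM in Foxp3-DTR. Both Foxp3-DTR libraries were lower, and they lay close together. The log2 fold change was -0.62 ± 0.20, with an interval from -1.09 to -0.14. It did not pass in edgeR (adjusted p = 0.207) and passed in DESeq2 (adjusted p = 0.0119), the only member called there. Gene counts do not separate the isoforms of Trp63. Of the 10 follicle stem cell markers, 4 had both Foxp3-DTR libraries below WT (Lhx2, Nfatc1, Sox9, Krt5), 2 had both above (Cd34, Itga6) and 4 overlapped. Over all tested genes 23.7% had both below and 22% both above. The part of these markers in the Trp63 difference was not tested. Lhx2 stood at 789 and 804 CPM in WT and at 425 and 439 CPM in Foxp3-DTR (-0.88 ± 0.18, edgeR adjusted p = 0.0778). Krt14 stood at 4079 and 3386 CPM in WT against 3766 and 4018 CPM, and Krt5 at 15425 and 14467 CPM against 11783 and 12822 CPM. Trp53 (chromosome 11, 69580359 to 69591873) stood at 182 and 133 CPM in WT and at 179 and 177 CPM in Foxp3-DTR, with an interval from -0.32 to 0.68.

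The brakes of p53 were not separated by a tested difference. Mdm2, its ubiquitin ligase and target gene, stood at 51.9 and 60.4 CPM in WT and at 73.0 and 64.3 CPM in Foxp3-DTR (0.29 ± 0.19, edgeR adjusted p = 0.584). Both Foxp3-DTR libraries were higher by a small margin. Mdm4 ranged from 37.8 CPM in WT A to 151 CPM in Foxp3-DTR C, with 121 and 84.5 CPM in WT C and Foxp3-DTR D. WT A and Foxp3-DTR D, its lowest libraries, were the ones with high suprabasal markers, and the part of these in the Mdm4 level was not tested.

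Of the 5 members in the list of p53 targets 4 had positive fold changes (80.0%, beside 48.6% of all genes). The median of the 5 was 0.33, with 0 calls in edgeR's test. Mdm2 and Bbc3, named above as p53 targets, were placed in other lists, as were Bax and Pmaip1. In that order their log2 fold changes were 0.29, 0.72, -0.12 and -1.68, so the share covers the 5 listed genes only. Phlda3 (chromosome 1, 135766119 to 135769136) stood at 189 and 166 CPM in WT and at 246 and 262 CPM in Foxp3-DTR. The groups were apart and tight: the log2 fold change was 0.52 ± 0.18, with an interval from 0.09 to 0.95 (edgeR adjusted p = 0.235). The other 4 genes of this list overlapped. Ccng1, a cyclin induced by p53, was level at 119 and 138 CPM against 132 and 123 CPM, with an interval from -0.43 to 0.42. Zmat3, an RNA-binding target, stood at 59.3 and 43.1 CPM against 63.3 and 57.5 CPM, and Sesn2, a stress sensor, at 10.4 and 6.52 CPM against 9.68 and 11.6 CPM. Trp53inp1 stood at 96.2 CPM in WT A and at 263, 280 and 244 CPM in WT C, Foxp3-DTR C and Foxp3-DTR D, and its log2 fold change was 0.55 ± 0.47 (edgeR adjusted p = 0.701). WT A stood apart from the other libraries: without it the value was 0.01 ± 0.20, and without WT C, which leaves WT A alone, Trp53inp1 passed at 1.45 ± 0.21 (edgeR adjusted p = 0.0321).

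The spread between libraries of a group was larger in WT than in Foxp3-DTR for 33 of 37 members (89.2%), beside 60.0% of all tested genes with counts in all libraries. The higher of the 2 WT libraries exceeded the lower by a median of 1.36 times over the members, against 1.11 times in Foxp3-DTR (1.27 and 1.19 times over all genes). Mdm4 had the largest WT ratio, at 3.21 times, followed by Trp53inp1 at 2.73, Gsdmd at 2.65, Casp4 at 2.62 and Bmf at 2.44 times. In each of these 5 genes WT A was the lower library. In the next by ratio, Bak1 at 2.17, Bad at 1.62 and Sesn2 at 1.60 times, WT A was the higher library. WT A also held the highest sums of sebaceous, T cell and suprabasal markers: sebaceous gland genes (5 of 5 with a row) summed to 1732 CPM there against 228 to 366 CPM in the other libraries, T cell genes (7 of 9, Cd4 and Foxp3 at 0 throughout) to 11.2 against 2.55 to 2.79 CPM, and suprabasal genes to 8274 CPM. Their part in the spread was not tested. Mlkl was the largest exception, at 1.49 times in WT and 2.84 times in Foxp3-DTR. With 2 libraries a group, each such ratio rests on 1 pair of values. The same WT pair and the same Foxp3-DTR pair give the ratios of all genes, so the 37 members are not separate observations.

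**Figure D4:**
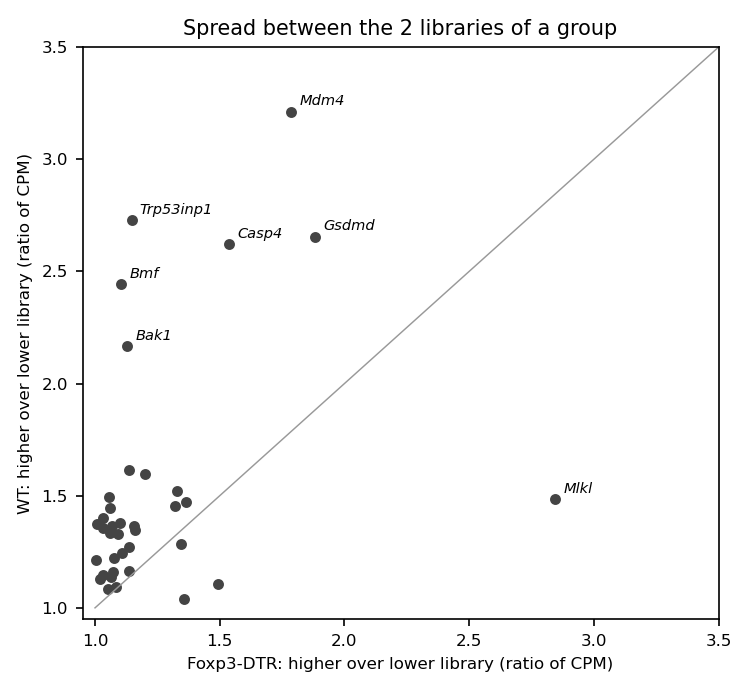
Ratio of the higher to the lower library within Foxp3-DTR (x axis) and within WT (y axis) for the 37 tested genes, with the line of equal ratios. Most points, 33 of 37, lie above the line, and Mdm4 and Trp53inp1 lie farthest above it while Mlkl lies below.

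Promoter sequences, from RefSeq on GRCm38.p6, covered 31 of the 38 members with 44 start sites. Bik, Tradd, Gsdmd, Pmaip1, Trp63, Trp53inp1 and Zmat3 had none in the table. Each window of 300 bases, 250 before and 50 after a start, was searched on both strands. A relaxed NF-kappaB string, with GGG and TTTCC around any 2 bases, was found in 6 of 44 windows of 5 members (13.6%), beside 1.63% of all 32851 windows. Those members were Casp4, in 2 overlapping windows, and Bcl2l1, Mcl1, Bbc3 and Trp53. Their log2 fold changes ran from 0.00 for Bcl2l1 to 2.42 for Casp4, and none passed. A stricter form with A after GGG, contained in the first, was found for Trp53 alone (0.411% of all windows), while the general NF-kappaB consensus was in 15.9% of member windows and 8.46% of all. The interferon response string, 2 copies of GAAA around any 2 bases, was found for Cflar and Ripk1 (4.55% of member windows, 3.44% of all), and the STAT string TTCNNNGAA for Ripk1 alone (2.27% and 8.3%), where 1 of its 2 matches overlaps the interferon string. The p53 decamer, of which a full response element holds 2, was found in 5 windows (11.4%, beside 8.36% of all), of Bax, Bmf, Trp53, Mdm2 and Ccng1, and the full p53 response element in 0 of 44 (0.0731% of all). A match is a description of letters and shows no binding. Sites outside these windows were not searched, so a window without a match does not mean a gene without a site.

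The 5 windows below are shown as examples of each string, chosen after values were seen: 4 are of members whose groups did not overlap (Casp4, Cflar, Ripk1 and Mdm2) and 1 is of p53 itself, whose groups overlapped. Mcl1 and Bbc3, whose groups did not overlap either, also hold the relaxed NF-kappaB string and are not printed. They run 5′ to 3′ on the gene's strand, and capitals mark the string: NF-kappaB in Casp4 (chr9:5308599-5308898, plus strand) and Trp53 (chr11:69580109-69580408, plus), interferon in Cflar (chr1:58711241-58711540, plus) and Ripk1 (chr13:34002624-34002923, plus), and the p53 decamer in Mdm2 (chr10:117710709-117711008, minus).
Casp4: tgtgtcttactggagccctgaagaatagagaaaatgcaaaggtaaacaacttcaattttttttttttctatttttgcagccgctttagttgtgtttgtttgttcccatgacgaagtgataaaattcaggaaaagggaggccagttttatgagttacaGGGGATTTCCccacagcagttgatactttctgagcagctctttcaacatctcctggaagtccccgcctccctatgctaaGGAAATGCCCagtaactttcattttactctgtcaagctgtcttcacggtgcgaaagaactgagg
Trp53: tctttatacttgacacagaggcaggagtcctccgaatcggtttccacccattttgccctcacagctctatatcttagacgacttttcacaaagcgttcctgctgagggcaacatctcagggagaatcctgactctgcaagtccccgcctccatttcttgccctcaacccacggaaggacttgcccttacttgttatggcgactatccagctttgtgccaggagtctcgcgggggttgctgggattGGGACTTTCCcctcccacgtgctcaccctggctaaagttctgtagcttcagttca
Cflar: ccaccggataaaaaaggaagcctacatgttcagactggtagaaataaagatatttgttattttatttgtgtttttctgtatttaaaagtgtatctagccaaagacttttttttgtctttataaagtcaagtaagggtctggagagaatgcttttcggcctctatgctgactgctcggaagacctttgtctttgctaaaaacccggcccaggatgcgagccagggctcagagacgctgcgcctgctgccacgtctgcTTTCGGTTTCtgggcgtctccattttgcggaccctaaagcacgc
Ripk1: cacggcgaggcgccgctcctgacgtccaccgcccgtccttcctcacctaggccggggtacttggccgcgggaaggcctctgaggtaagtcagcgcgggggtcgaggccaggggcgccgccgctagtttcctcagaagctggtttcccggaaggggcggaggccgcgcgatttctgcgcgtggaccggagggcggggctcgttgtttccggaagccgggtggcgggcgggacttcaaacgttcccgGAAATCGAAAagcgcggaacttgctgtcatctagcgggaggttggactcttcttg
Mdm2: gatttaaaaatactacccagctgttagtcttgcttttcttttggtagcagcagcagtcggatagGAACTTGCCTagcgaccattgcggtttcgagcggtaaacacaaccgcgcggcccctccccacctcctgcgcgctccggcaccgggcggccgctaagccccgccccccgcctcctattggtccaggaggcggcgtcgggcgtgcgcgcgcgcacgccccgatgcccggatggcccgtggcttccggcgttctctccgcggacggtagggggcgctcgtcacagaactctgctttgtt
In Casp4 the strings begin 93 and 14 bases before the start site, the second on the opposite strand. In Trp53 the string begins 5 bases before the start and runs across it. In Ripk1 it does the same at 1 of 2 listed start sites. The window of the other Ripk1 start held neither the interferon nor the STAT string. In Cflar the string begins 7 bases after the start, on the opposite strand, and in Mdm2 186 bases before. Casp4, on 12 WT counts in all, differed most between groups among the 5, and Trp53 least, at 0.18 ± 0.21 on the log2 scale.

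Other genes of the same pathways, 72 from 3 lists, were set beside the members, and 62 of them could be tested. One gene was called: the p53 target and antiproliferative gene Btg2, also known as an immediate early gene, rose in edgeR's test, 1 of 62, where 1.25% of all genes passed. At an unadjusted p under 0.05 there were 11 higher and 2 lower, or 21.0% beside 14.6% of all genes. Zbp1, among the 11 higher, passed the filter on low counts only through Foxp3-DTR, so its place there is no support. With limma-voom 1 of 62 was called (0.72% of all genes) and with DESeq2 10 of 64 (7.4%). Btg2 stood at 48.0 and 50.3 CPM in WT and at 131 and 116 CPM in Foxp3-DTR. Its log2 fold change was 1.33 ± 0.18 (edgeR adjusted p = 0.0325), and without Foxp3-DTR C it was 1.25 ± 0.30 and did not pass (edgeR adjusted p = 0.120).

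In the list of other p53 targets 12 of 26 had positive and 14 negative fold changes, with a median of -0.001 (1 call, Btg2, and 5 at an unadjusted p under 0.05, or 19.2% beside 14.6% of all genes). Dram1, a lysosomal p53 target, stood at 65.6 and 104 CPM in WT and at 202 and 185 CPM in Foxp3-DTR (1.19 ± 0.25, edgeR adjusted p = 0.0817). Gadd45a, a damage-induced arrest gene, went the opposite way, at 26.9 and 24.2 CPM against 7.36 and 13.7 CPM (-1.28 ± 0.36, edgeR adjusted p = 0.152). Cdkn1a (p21), the best known p53 target, followed the suprabasal markers by library and not the groups: it stood at 63.5 and 48.0 CPM in WT A and Foxp3-DTR D, and at 8.36 and 12.8 CPM in WT C and Foxp3-DTR C. Gadd45a and Cdkn1a were named after their values were seen.

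Among other apoptosis genes 20 of 27 had positive fold changes, with a median of 0.235 and 0 calls in edgeR's test (8 at an unadjusted p under 0.05, or 29.6% beside 14.6% of all genes). Among those DESeq2 called were Birc5, Birc3, Tnfaip3, Tnfrsf1a and Bok. Birc5 (survivin), a caspase inhibitor relative that also works in mitosis, stood at 67.4 and 38.1 CPM in WT and 15.5 and 16.7 CPM in Foxp3-DTR (-1.71 ± 0.32, edgeR adjusted p = 0.0604). Some further genes were picked after their values were seen because both Foxp3-DTR libraries lay above both WT libraries, so they show nothing of the branch they belong to. They were the TNF receptor Tnfrsf1a (0.61 ± 0.20), the ubiquitin ligase Birc3 (1.32 ± 0.34), the feedback inhibitor Tnfaip3 (1.84 ± 0.39) and the death receptor Fas (1.49 ± 0.54). Their edgeR adjusted p-values were 0.209, 0.128, 0.0901 and 0.271. Others of the list overlapped, such as Birc2, a relative of Birc3, at 60.5 and 94.3 CPM in WT against 87.8 and 71.4 CPM, and the death receptor Tnfrsf10b. Single libraries decided some of these calls: Birc5 (edgeR adjusted p = 0.0206), Dram1 (0.0242) and Fas (0.0444) passed without WT C, and Tnfaip3 (0.00494) without Foxp3-DTR D.

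The other necroptosis and pyroptosis genes had 7 of 11 positive fold changes and 0 calls in edgeR's test, with 1 at an unadjusted p under 0.05 (9.09% beside 14.6% of all genes). That gene was Zbp1, which passed the filter on low counts only through Foxp3-DTR, so the count is no support. Zbp1, a nucleic acid sensor that engages Ripk3, had 0 counts in both WT libraries and 73 and 13 counts in Foxp3-DTR C and D. Against a floor of 3 counts over the WT group it was at least 29.9-fold higher in Foxp3-DTR. Gsdmc stood at 7.39 and 0.7996 CPM in WT and at 7.56 and 37.3 CPM in Foxp3-DTR (edgeR adjusted p = 0.537), where Foxp3-DTR C barely exceeded WT A and the libraries of each group lay far apart. The inflammasome sensors differed in level: Nlrp3 and Nlrc4, like the cytokine gene Il1b, had 0 counts throughout, Aim2 had 9 counts in WT A alone, and Nlrp1b had 8, 65, 22 and 6 counts. The related gene Nlrp10 stood at 58.2 and 67.3 CPM in WT and at 87.3 and 71.0 CPM in Foxp3-DTR. A count of 0 still permits up to 0.185 to 0.213 CPM, depending on the library. The adaptor Pycard was well expressed and overlapped, at 164 and 99.0 CPM in WT against 101 and 122 CPM.

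**Figure D5:**
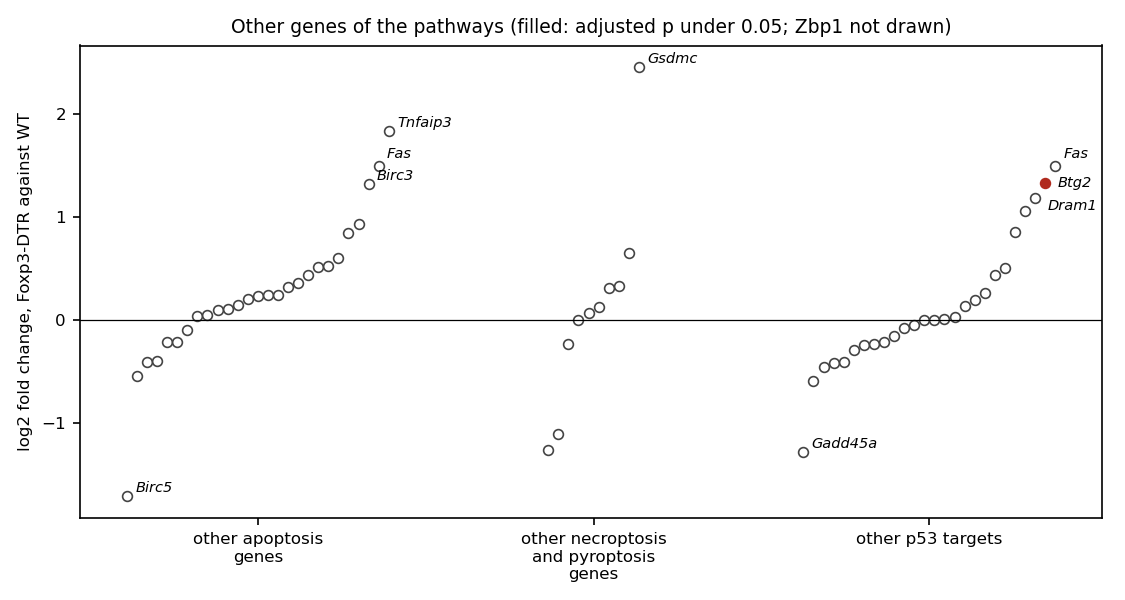
Log2 fold change of Foxp3-DTR against WT for the tested genes of the 3 wider lists, each list sorted from low to high. Btg2 is the only filled point (edgeR adjusted p under 0.05), Fas stands in both the apoptosis and the p53 list, and Zbp1, with 0 counts in WT, is not drawn.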

How the data were processed

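The table deposited by the authors holds raw counts of reads for each gene symbol in each library, without normalization. Per the submitters' processing notes, HTSeq 0.6.1, SAMtools 0.1.19.0, Bowtie2 2.1.0.0, TopHat2 2.0.12 and CASAVA 1.8.2 were used with build mm10. Libraries were made with a stranded mRNA kit, per the labels' protocols. No source read states which gene annotation or strand option HTSeq was run with, so reads of overlapping or antisense genes cannot be told apart. The counter's 5 special rows held 62.0% to 70.1% of a library's counts and were left out. The row for alignments that were not unique held 51.8% to 61.3%.

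The groups were fitted in edgeR 4.0.16 under R 4.3.3 (TMM, filterByExpr, robust glmQLFit and glmQLFTest, no covariate). P-values were adjusted by Benjamini-Hochberg over the 12920 tested genes, with a threshold of 0.05. Standard errors came from the fold change and the F statistic, and 95% intervals from the fit's degrees of freedom, unadjusted for the number of genes. Alternatives were RLE size factors, no filter, limma-voom (limma 3.58.1), DESeq2 1.42.0 and leaving out each library. TPM used the union of GENCODE M21 exons on mm10, found for 95.5% of tested symbols, and gene positions come from the same annotation. Exons shared with other genes were checked. Bax shares 12.2% of its exon length with a same-strand gene, and Bad 20.5% with an opposite-strand gene. Runs of 50 bases were shared with many other genes by Bcl2, Bcl2l11, Fadd, Mdm2, Zmat3 and Cflar, with up to 248 genes for Cflar. Bax, Bcl2l2, Casp8, Diablo, Mdm4, Ripk1, Trp53 and Xiap shared such runs with 1 other gene each. For Trp53 it was Trp53-ps, and for Mdm4 it was Mdm4-ps. The part of such sharing in the levels was not tested. The procedure was tested on simulated counts.

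The members and lists were chosen with earlier results of these data known. The naming rule gave full values for members past the threshold, the 3 of smallest p in each of 4 role groups, called genes of the wider lists and the 2 of smallest p in each, and any member could be named. The result of 1 gene of the wider lists is not reported here. The string first set down for the p53 decamer had the wrong spacing, so the published consensus was used instead. That consensus, the full element and the general NF-kappaB consensus were chosen after seeing the data. Nothing says that the libraries are separate animals. If they are not, the p-values reflect technical spread only. Floors on counts cover counting error only.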

Additional observations from a re-analysis of the deposited data

How the results depend on the processing

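With 2 libraries a group, leaving 1 out leaves a lone library that is assumed to vary like the other group, and the test recovered few 2-fold changes in simulation. The number of genes called (161, 106 higher and 55 lower) was 529 without the filter (277 and 252), 1003 by DESeq2 (489 and 514), 93 by limma-voom (70 and 23), and 80 to 423 when a library was left out, lowest without Foxp3-DTR C and highest without Foxp3-DTR D. Members called were 1 by DESeq2 (Trp63) and 0 to 1 with a library left out (Trp53inp1, without WT C). Other pathway genes called were 5 without the filter, 10 by DESeq2 and 0 to 4 with a library left out, lowest without Foxp3-DTR C, where Btg2 did not pass, and highest without WT C. The members' median log2 fold change ran from 0.03 (without WT C) to 0.192 (without Foxp3-DTR D). The cause was not tested.

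Of 37 tested members, 25 kept their sign in all 8 alternatives and 12 did not. With a library left out, the log2 fold changes of these 12 and of Cdkn1a ran from -0.047 to 0.54 for Casp1, -0.083 to 0.024 for Casp2, -0.066 to 0.38 for Casp8, -0.14 to 0.18 for Bcl2l1, -0.36 to 0.18 for Bax, -0.52 to 0.60 for Bak1, -0.57 to 0.14 for Bad, -0.058 to 0.36 for Tradd, -0.96 to 0.55 for Mlkl, -0.030 to 0.44 for Trp53, -0.033 to 1.64 for Mdm4, -0.10 to 0.11 for Ccng1 and -1.48 to 1.88 for Cdkn1a. Ccng1 was also positive, at 0.0036 with RLE size factors, 0.0096 without the filter and 0.0041 by DESeq2, and limma-voom gave 0.059 for Bak1 and 0.15 for Cdkn1a. No paired analysis was possible because the groups share only the letter C.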
